A study of Mus musculus with 6 samples.

Results

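The mitochondrial respiratory chain genes were taken as every gene on the array whose symbol starts with Nduf, Sdh, Uqcr, Cox4 to Cox8 or Atp5, which gave 98 genes of 29603, read by 143 probes of 39416. By complex they divide into 39 genes named for complex I, 4 for complex II, 8 for complex III, 18 for complex IV and 17 for complex V, with 8 assembly factors of complex I (Ndufaf) and 4 of complex II (Sdhaf). The rule used names only and no measured value, though it was set with earlier results of these data known. The brightest probe stood for each gene, and 95 of the 98 were well above background on every array by the scanner's own flag.

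RNA came from mouse bone marrow-derived mast cells, grown from marrow in interleukin-3 at 10 ng/ml for 4 to 6 weeks until over 97% were positive for Kit and the IgE receptor FcεRIα. Each of 6 conditions was measured on 1 single-colour array, and each RNA was a pool of 3 samples. Wild-type mast cells were cocultured with Lpar1-/- Swiss 3T3 fibroblasts or with Lpar1+/+ Swiss 3T3 fibroblasts. Mast cells labelled Pla2g3-/- and Pla2g3+/+ mast cells were cocultured with wild-type Swiss 3T3 fibroblasts. The last arrays held mast cells labelled Pla2g3-/- and Pla2g3+/+ mast cells kept without fibroblasts. Swiss 3T3 is an established mouse embryo fibroblast line, and the Lpar1-/- fibroblasts were a single-cell clone made with CRISPR/Cas9. Coculture lasted 4 days with stem cell factor at 100 ng/ml, the labels do not state stem cell factor for the cells kept alone, and mast cells were recovered as nonadherent cells after trypsin or on CD117 beads, with the route used for each array not given. The enzyme made from Pla2g3 is a phospholipase A2 that cells secrete, and the Lpar1 protein is a lysophosphatidic acid receptor.

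The respiratory chain in the inner mitochondrial membrane passes electrons from NADH (complex I) and succinate (complex II) through ubiquinone to complex III, and from there through cytochrome c to oxygen at complex IV, and the proton gradient that complexes I, III and IV build drives ATP synthesis at complex V. Most subunits are encoded in the nucleus and imported, and a small set is encoded in mitochondrial DNA, so both genomes supply complexes I, III, IV and V. Mast cells carry mitochondria as other cells do, and several complex IV subunits exist as a widely expressed form and a form known mainly from muscle and heart.

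The probe sequences below belong to genes of complexes II to V with marked differences and to the widely expressed relatives of the isoform genes. Each is the start of a 60-base probe, 30 bases, 5′ to 3′, in mm9 coordinates of the whole probe from the scanner files. Cox6a2 and Cox6a1 are the muscle and widely expressed forms of subunit 6A, Cox7a1 and Cox7a2 those of subunit 7A, and Uqcrq, Atp5pb and Sdhb are subunits of complexes III, V and II.
Cox6a2, chr7:135349160-135349219, minus strand: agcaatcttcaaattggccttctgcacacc
Cox6a1, chr5:115795726-115795785, minus strand: ggaccacgaaaaccctttggatgctaagct
Cox7a1, chr7:30970337-30970948, plus strand, with a gap: acaacgtcctgtacagactgaccatgacgc
Cox7a2, chr9:79603215-79603274, minus strand: ctttggggatcaatatttattgatgtgtat
Uqcrq, chr11:53242451-53242510, minus strand: ctgggagaggaatccacactgtagtcttga
Atp5pb, chr3:105745782-105745841, minus strand: ctctttctgtattgctatctattgaaataa
Sdhb, chr4:140535052-140535111, plus strand: tgtcaaacagctggagtctccctaagtaca

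All values below are log2 signals after subtraction of each array's 75th percentile, and a difference of such values is a log2 ratio between 2 arrays. With 1 array per group no p-value can be had, so a difference is called only as past 1.5-fold or past 2-fold, in genes whose probe was well above background on at least 1 of the 2 arrays. The spread between 2 cultures is shown by the pair of wild-type cocultures, Lpar1+/+ fibroblasts with wild-type mast cells minus wild-type fibroblasts with Pla2g3+/+ mast cells: across the 95 genes above background on every array, the SD of that difference was 0.12 and 95% lay within 0.20. None of 97 genes passed 1.5-fold in that pair, in which 4.03% of all genes were higher and 1.83% lower. The scanner's own error of a difference had a median of 0.20 for these genes.

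Labels and other cells were checked first. The brightest of 3 Pla2g3 probes read 0.51 in the array labelled Pla2g3-/- and -6.31 in the Pla2g3+/+ array without fibroblasts, and -1.84 and -7.31 in the corresponding cocultures, so its signal was 113-fold and 44.4-fold higher under the Pla2g3-/- label. The deleted part of the gene is not given, so whether this probe lies inside or outside it is unknown. The reason for the higher signal under this label was not tested, and these arrays are called by their label throughout. The Lpar1 probe read -3.89 on Lpar1-/- and -4.14 on Lpar1+/+ fibroblasts, a difference of 0.25, so its signal did not mark the Lpar1-/- label. It read -2.85 and -2.84 in labelled Pla2g3-/- and Pla2g3+/+ mast cells without fibroblasts, so mast cells kept alone also gave Lpar1 signal. On the same log2 scale, the summed signal of the mast cell markers lay between 8.78 and 9.24 on the 6 arrays and all 9 were above background. The summed fibroblast marker signal lay between 3.85 and 5.11 in cocultures, against -2.99 and -2.63 without fibroblasts, and Lum was not above background on any coculture array. Fewer cells of a type and less RNA per cell cannot be told apart in such RNA.

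In mast cells on Lpar1-/- fibroblasts, respiratory chain transcripts were mostly lower than on Lpar1+/+ fibroblasts. The median difference was -0.41 across 97 genes, against -0.05 across all genes. Of the 97, 86 (88.7%) were below 0, against 52.8% of all genes. Past 1.5-fold, 28 were lower and 1 higher, where 18.4% of all genes were lower and 20.3% higher. With quantile normalization 11 members (11.3%) were lower, against 19.0% of all genes, so the share of lower members stood above that of all genes with the 75th percentile and below it with quantile normalization. In cultures with wild-type fibroblasts, mast cells labelled Pla2g3-/- minus Pla2g3+/+ gave a median of -0.29 across 96 genes, against -0.08 across all genes, with 82 below 0. Past 1.5-fold, 15 were lower and 1 higher, where 21.1% of all genes were lower and 17.4% higher, so the 15 lower genes (15.6%) were no larger a share than among all genes. Most differences there were small and on one side of 0: 85.4% of the members were below 0, against 55.4% of all genes.

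Without fibroblasts, the array labelled Pla2g3-/- and the Pla2g3+/+ array differed little in these genes: the median was 0.03, no member passed 1.5-fold, and 1.98% of all genes were higher and 4.00% lower. Within Pla2g3+/+ mast cells, coculture minus alone had a median of -0.03, against 0.14 across all genes. Past 1.5-fold, 2 members were higher and 5 lower, where 25.2% of all genes were higher and 14.6% lower. The members' median minus that of all genes was -0.16 there, -0.02 with quantile normalization and 0.01 with normexp background. Within mast cells labelled Pla2g3-/-, coculture minus alone had a median of -0.36, against 0.12 across all genes. Past 1.5-fold, 1 was higher and 18 lower, where 24.4% of all genes were higher and 15.6% lower. Cells kept alone were hybridised on slide 1 and all cocultures on slide 2, and in these last 2 comparisons an effect of the slide and one of coculture cannot be told apart. Slide cancels in the difference of the coculture effects, which had a median of -0.37 with 21 lower and 1 higher of 95, where 18.6% of all genes were lower and 19.1% higher. With quantile normalization 12.6% of the members and 17.5% of all genes were lower there, and 14.6% and 17.8% in labelled Pla2g3-/- coculture minus alone.

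Past 2-fold the counts were small. On Lpar1-/- minus Lpar1+/+ fibroblasts 5 members were lower, where 8.83% of all genes were, and in labelled Pla2g3-/- minus Pla2g3+/+ cocultures 4 were lower and 0 higher, where 10.4% and 9.11% of all genes were. Coculture minus alone gave 4 lower in mast cells labelled Pla2g3-/-, where 7.28% of all genes were, and 2 lower and 1 higher in Pla2g3+/+ mast cells, where 7.52% and 13.0% were. The difference of the coculture effects gave 4 lower and 0 higher, where 8.94% and 9.79% of all genes were. Between genotypes without fibroblasts 0 were lower past 2-fold, where 1.57% of all genes were, and in the wild-type coculture pair 0 were higher, where 0.792% were.

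**Figure D1:**
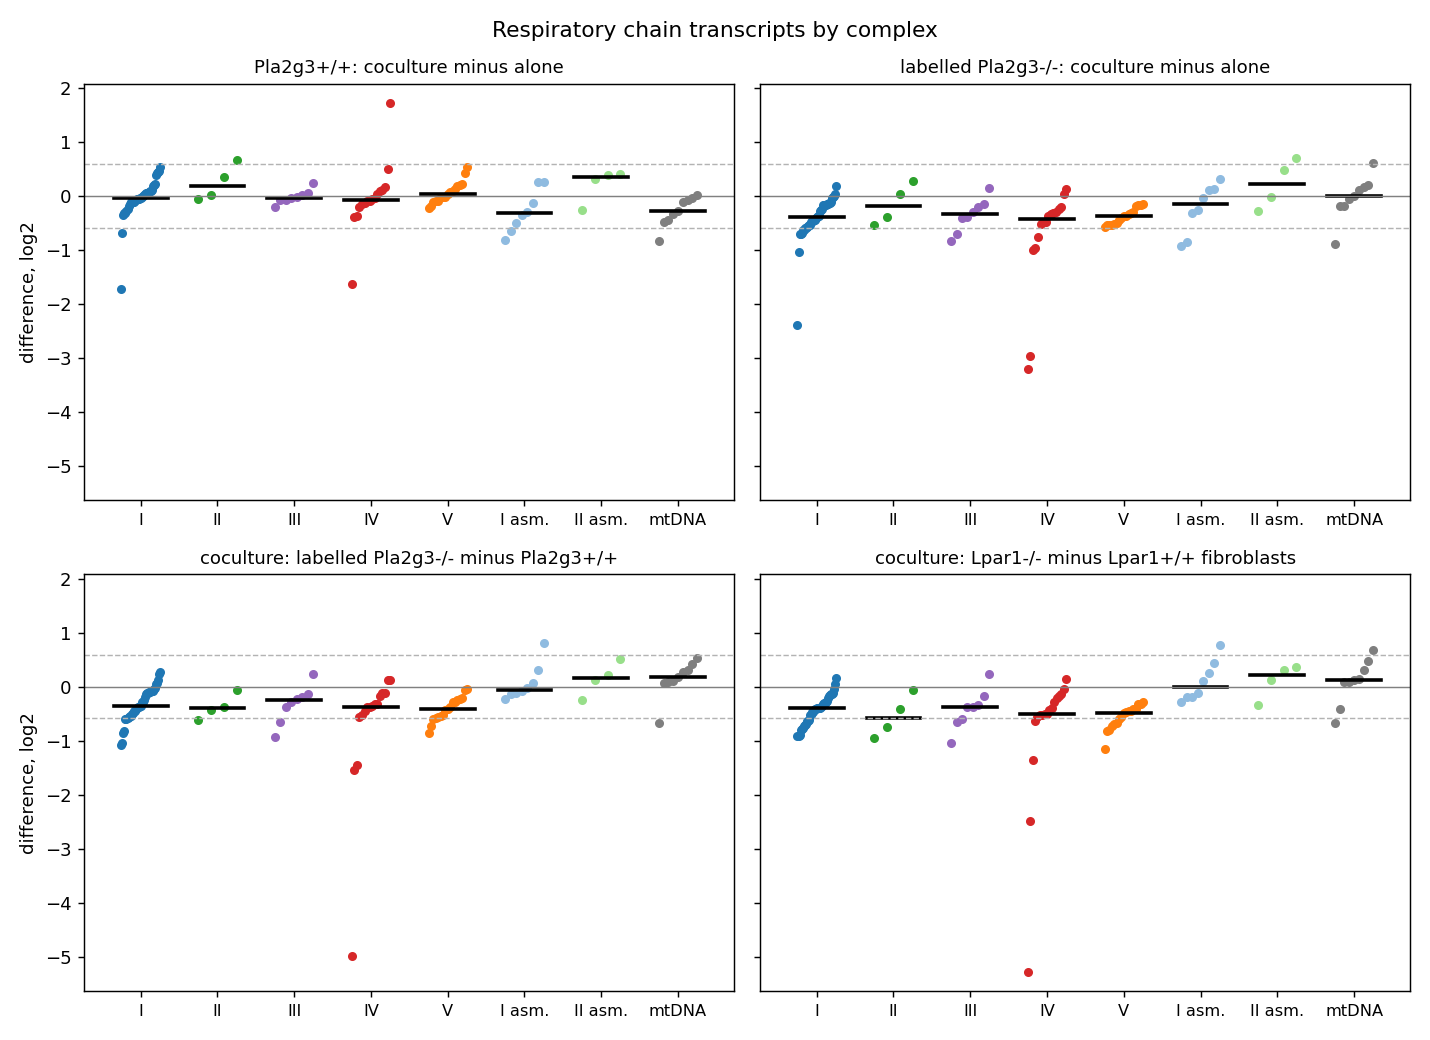
Log2 difference of each respiratory chain gene (points, sorted within a complex) in 4 comparisons, by complex, with assembly factors (asm.) and 9 subunits encoded in mitochondrial DNA (mtDNA); black bars are medians and dashed lines 1.5-fold. The medians of complexes I to V lie below 0 in 3 panels, and between -0.07 and 0.18 in Pla2g3+/+ mast cells.

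Other measured features of the arrays moved with these comparisons, and their part in the result was not tested. Of 9 mast cell markers, 3 were lower and 1 higher past 1.5-fold in each coculture comparison. Among all genes 18.4% and 21.1% were lower in the Lpar1 and the labelled Pla2g3 comparison, and 20.3% and 17.4% higher. Mcpt4, a chymase, had -2.21 in the Lpar1 and -1.13 in the labelled Pla2g3 comparison. Tpsb2, a tryptase, had -1.22 and -1.21, and Hdc, which makes histamine, -3.28 and -2.29. Gata2 was the 1 higher, at 0.69 and 0.77. Within 1.5-fold were Kit at 0.36 and 0.35, Cpa3 at -0.07 and 0.07, and Fcer1a at -0.08 and 0.13. Ms4a2 at -0.34 and -0.06 and Cma1 at -0.53 and -0.26 were also within 1.5-fold. Neutrophil marker signal summed to 3.71 on Lpar1-/- and 2.15 on Lpar1+/+ fibroblasts, with all 8 markers above background on both. The eosinophil sums were -1.01 and -3.17 there, and -1.49 and -2.92 in labelled Pla2g3-/- and Pla2g3+/+ cocultures. Of the 6 eosinophil markers, 2, 3, 4 and 3 were not well above background on these arrays, in that order. The neutrophil sum ran the other way from the Lpar1 comparison in the cultures with wild-type fibroblasts. It was 1.06 in mast cells labelled Pla2g3-/- and 2.05 in Pla2g3+/+ mast cells. The 8 neutrophil markers were split there, with 3 lower and 2 higher past 1.5-fold, where 21.1% of all genes were lower and 17.4% higher. S100a8 and S100a9 had -2.05 and -1.96, and Retnlg and Mmp8 1.39 and 1.35. In the Lpar1 comparison 7 of the 8 were higher and 0 lower. In the cultures with wild-type fibroblasts the fibroblast sum was 3.85 in mast cells labelled Pla2g3-/- and 5.05 in Pla2g3+/+ mast cells, and the macrophage sums were 1.60 and 3.34. The macrophage sum was also lower on Lpar1-/- fibroblasts, 0.89 against 3.31 on Lpar1+/+ fibroblasts. Cd68 carried most of that sum, at 0.08 and 3.12. Of the 8 macrophage markers 4 were lower and 0 higher past 1.5-fold, where 18.4% of all genes were lower and 20.3% higher. The 4 were Cd68, Mrc1 at -5.24, Mpeg1 at -1.22 and Lyz2 at -0.77. Adgre1, C1qa, C1qb and Csf1r differed by 0.05, 0.31, 0.15 and -0.26. Without fibroblasts, the neutrophil sum was 1.40 in mast cells labelled Pla2g3-/- and 5.31 in Pla2g3+/+ mast cells. The eosinophil sums were -1.96 and 0.95 there, with 2 and 0 of the 6 markers not well above background.

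Complex I oxidises NADH. The 39 genes named for it had medians of -0.40 in the Lpar1 comparison and -0.35 in the labelled Pla2g3 coculture comparison. Past 1.5-fold, 12 (30.8%) and 6 (15.4%) of them were lower. Among all genes 18.4% and 21.1% were lower, the shares against which the counts of the other complexes are also to be read. Grouping was by name, so Ndufa4, which belongs with complex IV, and its relative Ndufa4l2 are counted here and not there. Both are among the 6, with Ndufa11b, Ndufa9, Ndufab1 and Ndufs8. Ndufs8, an iron-sulphur subunit of the core, read 0.89 on Lpar1-/- and 1.81 on Lpar1+/+ fibroblasts, 0.89 in mast cells labelled Pla2g3-/- and 1.92 in Pla2g3+/+ mast cells in coculture, and 1.43 and 1.46 in the same 2 genotypes without fibroblasts. The low arrays were the Lpar1-/- and the labelled Pla2g3-/- coculture, with differences of -0.92 and -1.04 from the array each was compared with.

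Core subunits differed among themselves. The 7 nuclear core subunits had medians of -0.31 and -0.12 in these 2 comparisons, and Ndufs8 was the 1 past 1.5-fold in each. Ndufs7, another iron-sulphur core subunit, had differences of 0.05 and 0.27, and Ndufv1, the subunit that binds NADH, -0.15 and -0.05. Ndufs1, the largest nuclear core subunit, had -0.39 and -0.55, and Ndufv2, another core subunit, -0.31 and -0.12. Among accessory subunits, Ndufa9 had -0.91 and -0.82, and Ndufab1, the acyl carrier protein, -0.78 and -0.86. Ndufa6 was the highest in the Lpar1 comparison, at 0.16, and Ndufs7 in the other. After coculture, mast cells labelled Pla2g3-/- had a difference of -1.05 for Ndufc2, an accessory subunit, and Pla2g3+/+ mast cells one of -0.35. Ndufb4, another accessory subunit, was lower after coculture in both genotypes, at -0.54 in the labelled Pla2g3-/- and -0.68 in the Pla2g3+/+ mast cells.

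Complex II, succinate dehydrogenase, links the citric acid cycle to the chain. Its 4 genes had medians of -0.58 in the Lpar1 and -0.40 in the labelled Pla2g3 coculture comparison, with 2 and 1 of 4 lower past 1.5-fold. Sdhb, its iron-sulphur subunit, read 3.68 on Lpar1-/- and 4.62 on Lpar1+/+ fibroblasts, 3.93 in labelled Pla2g3-/- and 4.54 in Pla2g3+/+ cocultures, and 3.89 and 3.88 without fibroblasts. Coculture minus alone was 0.04 in mast cells labelled Pla2g3-/- and 0.66 in Pla2g3+/+ mast cells. A second Sdhb probe gave -1.03 in the Lpar1 and -0.96 in the labelled Pla2g3 coculture comparison, and -0.43 for the labelled Pla2g3-/- coculture minus alone. Sdha, the flavoprotein subunit beside it, differed by -0.06 and -0.05, and the membrane anchors Sdhc and Sdhd by -0.75 and -0.37, and by -0.41 and -0.43.

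Complex III passes electrons from ubiquinol to cytochrome c. Its 8 genes had medians of -0.38 and -0.25, with 3 (37.5%) and 2 (25%) lower past 1.5-fold. Uqcrq, a small subunit, read 3.96 on Lpar1-/- and 5.01 on Lpar1+/+ fibroblasts, 4.15 in labelled Pla2g3-/- and 5.07 in Pla2g3+/+ cocultures, and 4.98 and 5.02 without fibroblasts. Its difference was -1.05 in the Lpar1 comparison, the 1 member of complex III past 2-fold, and -0.92 in the other, where a second probe gave -0.79. Uqcrfs1, the Rieske iron-sulphur protein, had -0.65 in both. The core subunits Uqcrc1 and Uqcrc2 differed by -0.38 and -0.28, and by -0.17 and -0.19. Uqcrh, the hinge protein of the complex, was the 1 member above 0 in both comparisons, at 0.24 and 0.24.

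Complex V is ATP synthase, and with the brightest probes and the 75th percentile all 17 of its genes were below 0 in both coculture comparisons and in labelled Pla2g3-/- mast cells after coculture (15 to 17 of them under the other settings). Among all genes 52.8% were below 0 in the Lpar1 and 55.4% in the labelled Pla2g3 coculture comparison. In labelled Pla2g3-/- mast cells after coculture the share was 43.0%. The medians were -0.49 on Lpar1-/- minus Lpar1+/+ fibroblasts and -0.42 in labelled Pla2g3-/- minus Pla2g3+/+ cocultures, and -0.38 for the labelled Pla2g3-/- coculture minus alone. Past 1.5-fold were 7 (41.2%), 4 (23.5%) and 0 of the 17. Atp5pb, subunit b of the peripheral stalk, read 3.28 on Lpar1-/- and 4.43 on Lpar1+/+ fibroblasts, 3.57 in labelled Pla2g3-/- and 4.43 in Pla2g3+/+ cocultures, and 3.93 and 3.89 without fibroblasts. Its differences were -1.15 and -0.86, and a second probe gave -1.10 and -0.89. Atp5a1 and Atp5b, the alpha and beta subunits of the catalytic head, had -0.33 and -0.21, and -0.66 and -0.60. The 3 genes of the c ring, Atp5g1, Atp5g2 and Atp5g3, had -0.82, -0.46 and -0.80 in the Lpar1 comparison and -0.52, -0.28 and -0.55 in the other. A second Atp5g1 probe gave 0.23 in the Lpar1 comparison and was near 0 in the other. Atp5h, of the peripheral stalk, had -0.27 and -0.03, and a second probe -0.17 and 0.12. Atp5j, also of the peripheral stalk, had -0.41 and -0.24, and a second probe 0.46 and 0.97. This second Atp5j probe was dim, at -7.37 to -5.98 on the 6 arrays, against 3.65 to 4.08 for the brightest. It differed by 0.93 between the 2 wild-type cocultures.

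Complex IV, cytochrome c oxidase, held the largest differences of the set, beside medians like those of the other complexes: -0.50 across 17 genes in the Lpar1 and -0.37 across 16 in the labelled Pla2g3 coculture comparison, with 4 (23.5%) and 2 (12.5%) lower past 1.5-fold. Cox6a2, the muscle and heart form of subunit 6A, read -5.44 on Lpar1-/- and -0.16 on Lpar1+/+ fibroblasts, -5.62 in labelled Pla2g3-/- and -0.63 in Pla2g3+/+ cocultures, and -2.66 and -2.36 without fibroblasts. It was thus highest in the 2 wild-type cocultures and lowest in the other 2, with the arrays without fibroblasts between, and was above background on all 6. The signal was 38.8-fold lower (-5.28) in the Lpar1 comparison and 31.8-fold lower (-4.99) in the labelled Pla2g3 coculture comparison. Coculture minus alone was -2.96 in mast cells labelled Pla2g3-/- and 1.73 in Pla2g3+/+ mast cells. Over all settings tried the Lpar1 difference ranged from -5.54 to -4.03 and the other from -5.46 to -3.47.

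Cox7a1, the muscle and heart form of subunit 7A, read -1.73 on Lpar1-/- and 0.76 on Lpar1+/+ fibroblasts, -0.77 in labelled Pla2g3-/- and 0.67 in Pla2g3+/+ cocultures, and 0.23 and 0.17 without fibroblasts. The same 2 cocultures were low and the wild-type cocultures high, at differences of -2.49 and -1.44. Cox8b, the muscle and heart form of subunit 8, was well above background on 4 arrays and not on the Lpar1-/- and labelled Pla2g3-/- cocultures, so its signal was at least 2.42-fold lower on Lpar1-/- than on Lpar1+/+ fibroblasts, at least 1.41-fold lower in labelled Pla2g3-/- than in Pla2g3+/+ coculture, and at least 4.46-fold lower in labelled Pla2g3-/- coculture than in those mast cells alone. Over the settings tried, the measured difference of Cox8b ranged from -1.50 to -0.15 in the Lpar1 comparison and from -3.26 to -0.32 for the labelled Pla2g3-/- coculture minus alone, so the bounds rest on the scanner's processed signal. With a normexp background the sign of the labelled Pla2g3 comparison of Cox8b turned, to 0.13, and that of Ndufa4l2 as well, to 0.062. Ndufa4l2, a relative of Ndufa4 linked to hypoxia, read -7.09 on Lpar1-/- and -6.19 on Lpar1+/+ fibroblasts and -7.79 in labelled Pla2g3-/- and -6.71 in Pla2g3+/+ cocultures, against -5.41 and -4.99 without fibroblasts.

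Cox6a1 and Cox7a2 differed by less than their muscle and heart forms. Cox6a1 had -0.39 and -0.37 in the Lpar1 and labelled Pla2g3 coculture comparisons, Cox7a2 -0.64 and -0.37, Cox8a -0.29 and -0.12, and Ndufa4, now known to belong with complex IV, -0.71 and -0.59. Cox4i1, the common form of subunit 4, had -0.21 and -0.18, and Cox4i2, its hypoxia-linked relative, 0.14 and 0.13. Cox5a and Cox5b, nuclear subunits of the complex, had -0.51 and -0.57, and -0.56 and -0.32. Cox7a2l, a supercomplex assembly factor, was near 0 in both, at -0.17 and 0.12. Cox6b1 had -0.43 and -0.36. Cox6b2, Cox7b2 and Cox8c are known from testis: Cox6b2 had -0.14 and -0.45, Cox7b2 stayed below the background limit on all 6 arrays, and Cox8c passed it on 1 array.

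**Figure D2:**
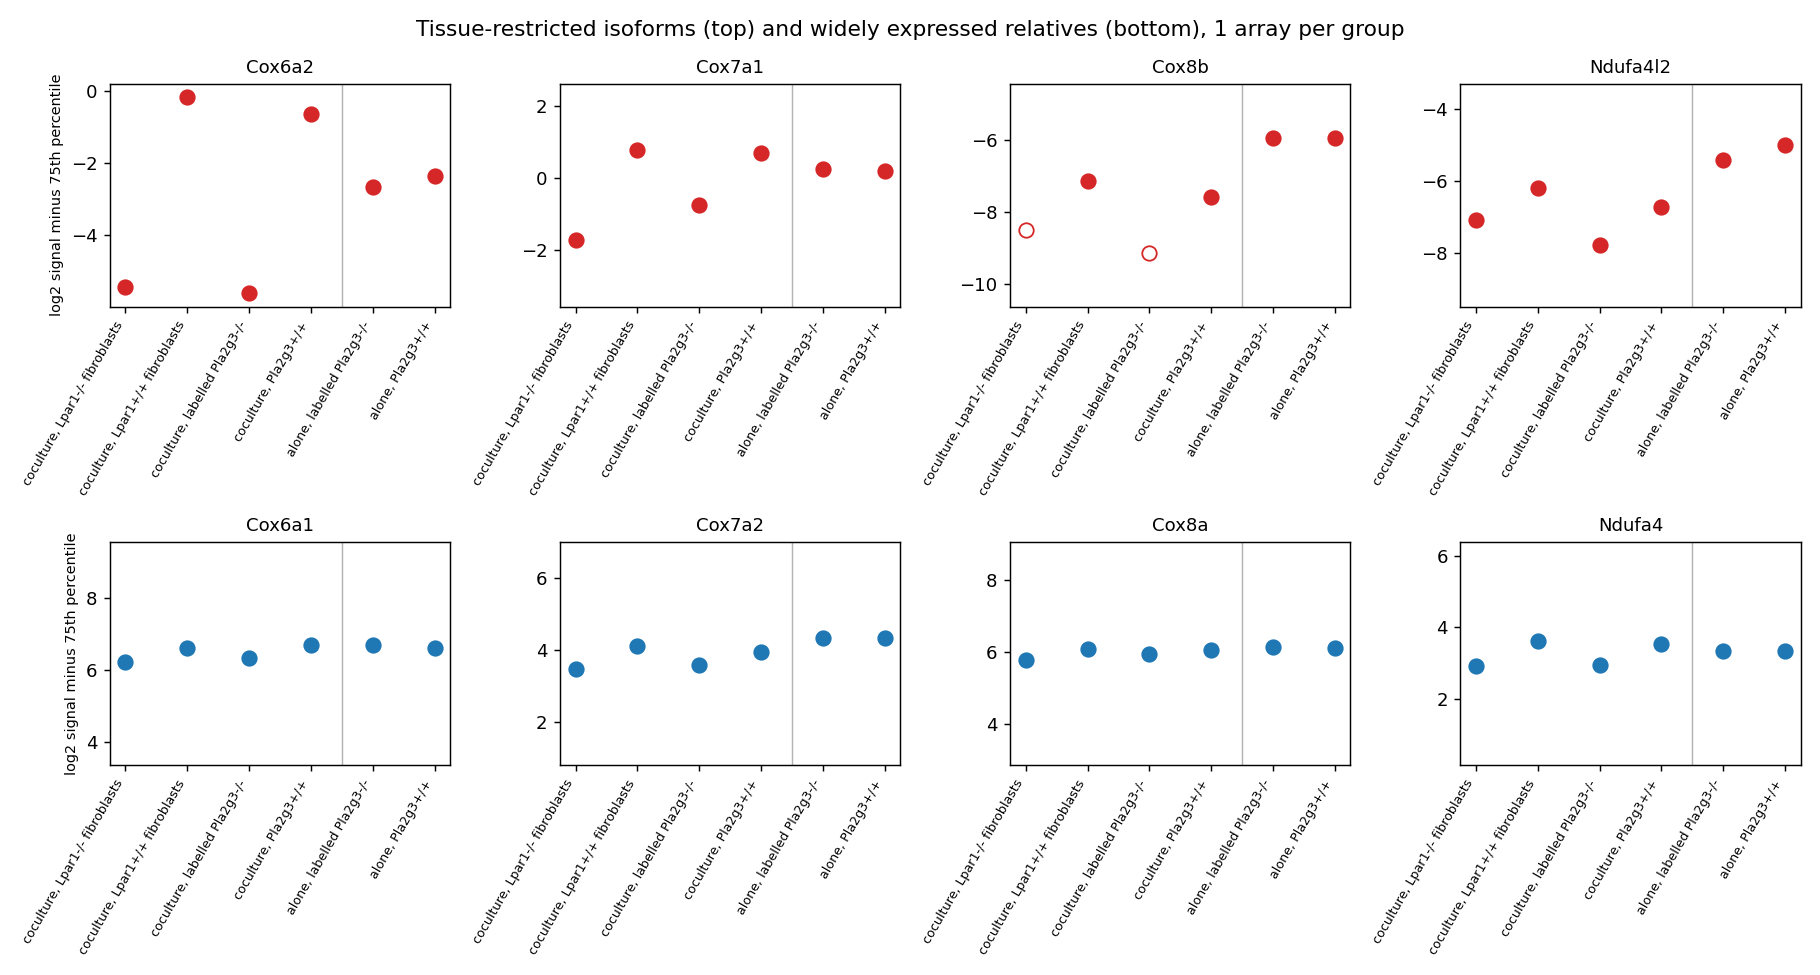
Log2 signal of each gene on the 6 arrays, 1 point per array, tissue-restricted forms above their widely expressed relatives, cocultures left of the grey line; open points are not well above background. All panels span the same range of log2 units, and Cox6a2 and Cox7a1 are lowest in the Lpar1-/- and labelled Pla2g3-/- cocultures.

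The 2 coculture comparisons use 4 different arrays, so their values can be set against each other. Across 96 genes the differences had Pearson's r of 0.96 and Spearman's rho of 0.88, and without Cox6a2, Cox7a1, Cox8b and Ndufa4l2 0.90 and 0.87 over 92 genes. Across all 22420 genes compared the correlation was 0.83 and 0.80, so an association of this order was common to the arrays; genes are not independent replicates, and the arrays share slide 2. Of the 15 genes lower past 1.5-fold in the labelled Pla2g3 comparison, 14 (93.3%) were also lower in the Lpar1 comparison, where they made up 50% of 28; over all genes compared the same shares were 66.2% and 75.1%. The 14 were Atp5b, Atp5o, Atp5pb, Cox6a2, Cox7a1, Ndufa11b, Ndufa4, Ndufa4l2, Ndufa9, Ndufab1, Ndufs8, Sdhb, Uqcrfs1 and Uqcrq, so all 5 complexes were represented.

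**Figure D3:**
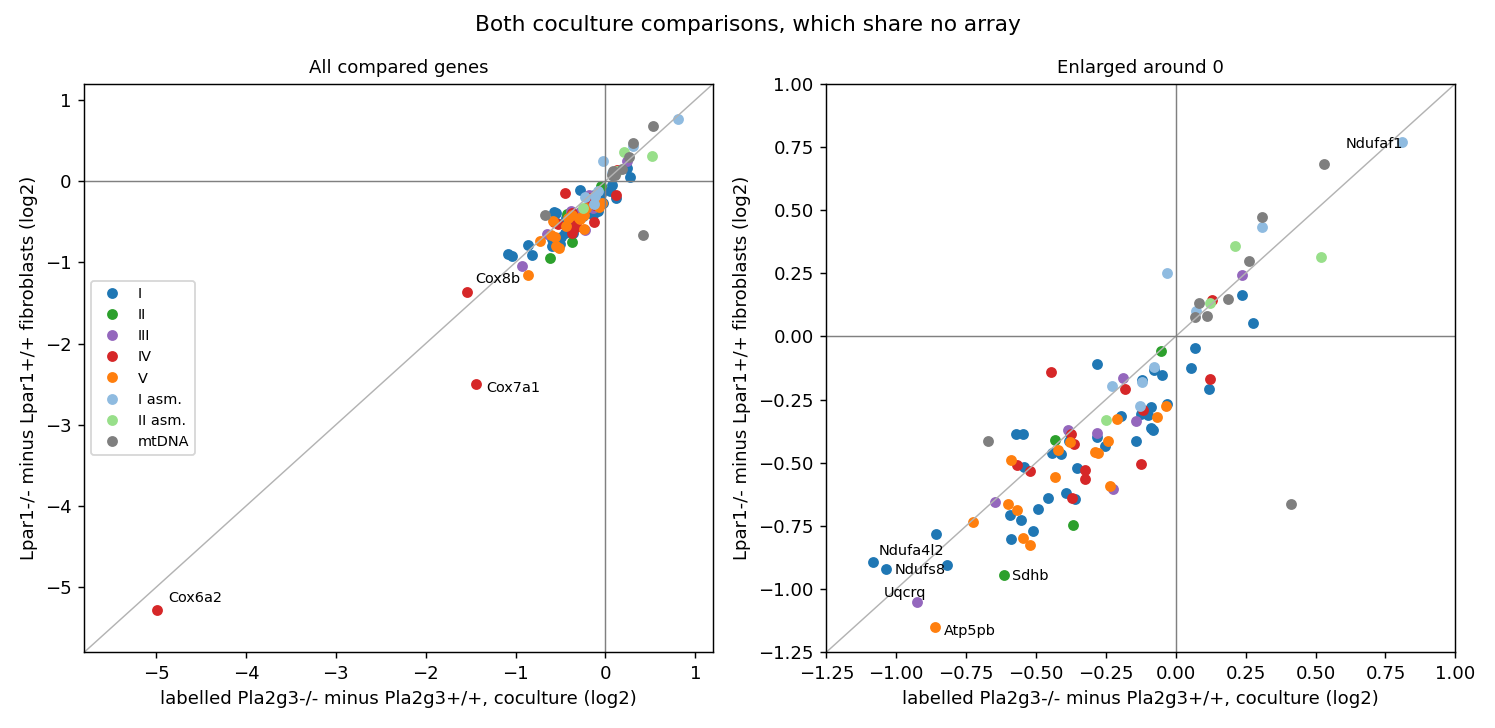
Each compared gene by its log2 difference in labelled Pla2g3-/- minus Pla2g3+/+ cocultures (horizontal) and in Lpar1-/- minus Lpar1+/+ fibroblast cocultures (vertical), coloured by complex, with subunits of mitochondrial DNA in grey; the line marks equal values. Of 96 nuclear genes, 81 are below 0 in both and 10 above 0 in both. Among all 22420 genes compared, 9982 are below 0 in both and 8321 above 0 in both.

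The Ndufaf and Sdhaf assembly factors and the subunits encoded in mitochondrial DNA had medians near or above 0 in both coculture comparisons. The structural subunits had medians of -0.43 and -0.37, with 28 of 85 (32.9%) and 15 of 84 (17.9%) lower past 1.5-fold. The 12 Ndufaf and Sdhaf factors had medians of 0.11 and 0.02, with 0 lower and 1 higher (8.33%) in each. Among all genes 18.4% and 21.1% were lower, and 20.3% and 17.4% higher. Other assembly factors, not among the members, were also measured. Of 18 for complex IV, 5 (27.8%) and 3 (16.7%) were lower, and 2 and 1 higher. Of 13 for complexes I and III, 2 (15.4%) were lower in each, and 2 and 1 higher. Ndufaf1, a factor that acts on the membrane arm of complex I, read 0.83 on Lpar1-/- and 0.07 on Lpar1+/+ fibroblasts, 1.09 in labelled Pla2g3-/- and 0.29 in Pla2g3+/+ cocultures, and 0.78 in both genotypes without fibroblasts. Sdhaf2, which adds flavin to Sdha, had 0.31 and 0.52, and Sdhaf4, which works with Sdha, 0.36 and 0.21. Ndufaf4 and Ndufaf6 were lower past 1.5-fold after coculture in both genotypes, at -0.93 and -0.86 in mast cells labelled Pla2g3-/- and -0.82 and -0.64 in Pla2g3+/+ mast cells; a second Ndufaf4 probe gave -0.36 and -0.79. The structural and assembly groups were not tested against each other, since members are not replicates.

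The array held 9 subunits encoded in mitochondrial DNA: ND1 to ND6 with ND4L of complex I, CYTB of complex III and ATP8 of complex V. Their medians were 0.13 in the Lpar1 and 0.19 in the labelled Pla2g3 coculture comparison, with 7 and 8 of 9 above 0. CYTB read 6.86 on Lpar1-/- and 6.73 on Lpar1+/+ fibroblasts, 6.89 in labelled Pla2g3-/- and 6.81 in Pla2g3+/+ cocultures, and 6.73 and 6.88 without fibroblasts. ND5 had 0.68 and 0.53. ND1 went the other way, at -0.41 and -0.67, and ND6 split, at -0.66 and 0.41. Cycs, the cytochrome c of somatic cells and encoded in the nucleus, read 3.11 on Lpar1-/- and 4.22 on Lpar1+/+ fibroblasts, 3.02 in labelled Pla2g3-/- and 4.16 in Pla2g3+/+ cocultures, and 4.06 and 4.12 without fibroblasts.

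Of 21 regulator and mitochondrial DNA maintenance genes, 4 (19.0%) were lower and 6 (28.6%) higher past 1.5-fold in the Lpar1 comparison. In the labelled Pla2g3 coculture comparison 4 of 18 (22.2%) were lower and 3 (16.7%) higher. Among all genes 18.4% and 21.1% were lower, and 20.3% and 17.4% higher. Myc had -2.88 in the Lpar1 comparison and -2.84 in the labelled Pla2g3 coculture comparison. Pprc1, a coactivator related to Ppargc1a, had -1.81 and -1.92, and Gabpb1, partner of the ETS factor Gabpa, -1.31 and -1.11. Nrf1, a factor that binds many respiratory gene promoters, had -0.02 and 0.20, Gabpa 0.30 and 0.11, Esrra 0.22 and 0.51, and Tfam, which packages mitochondrial DNA, -0.12 in both. Ppargc1b had 0.67 and 1.19. Ppargc1a was not well above background on 3 arrays. Mterf1a, a mitochondrial transcription terminator, had 2.37 and 1.82. In the ubiquinone and carrier list, 7 of 20 (35%) and 6 of 19 (31.6%) were lower past 1.5-fold, and 2 higher in each. Coq7 and Coq10b had -1.58 and -1.39, and -1.85 and -1.59, and Coq8a 1.86 and 1.68. Ttc19, an assembly factor of complex III, had -1.10 and -1.17, Cox10, which makes the haem of complex IV, -1.09 and -1.61, and Slc25a5, an ADP/ATP carrier, -1.07 and -0.88. Pdk1, a kinase that turns off pyruvate dehydrogenase, had -1.64 and -2.09. Of 78 mitochondrial ribosomal protein genes, 17 (21.8%) and 10 (12.8%) were lower and none higher past 1.5-fold, where 18.4% and 21.1% of all genes were lower, with medians of -0.27 and -0.20, and of 21 genes of the citric acid cycle and pyruvate entry, 3 (14.3%) were lower in each, at medians of -0.30 and -0.32. Of 25 import genes, 8 (32%) were lower in each, at medians of -0.38 and -0.34, and 0 and 1 higher, with Timm8a1, a small import chaperone, at -1.33 and -1.65.

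Promoter windows of RefSeq, 250 bases before to 50 after the transcription start (GRCm38.p6), were in the table for 80 of the members. Both strands were searched for letters bound by factors known from respiratory genes. Of 85 windows, 34.1% held CGCANGCGC, the letters of the nuclear respiratory factor NRF1, against 6.31% of all 32851 windows. The ETS core CCGGAAG was in 25.9% against 8.86%, and its longer form CCGGAAGT in 5.88% against 3.89%. The oestrogen-related receptor letters TCAAGGTCA were in 2.35% against 0.423%, and their core AAGGTCA in 9.41% against 4.72%. The YY1 letters AAGATGGCG were in 9.41% against 1.40%, and their core AAGATGG in 14.1% against 6.34%. Each core lies within its longer form, so those counts overlap. The 28 genes with the NRF1 letters had a median difference of -0.40 in the Lpar1 comparison and -0.25 in the labelled Pla2g3 coculture comparison, against -0.43 and -0.32 in 51 compared of the 52 without them. Past 1.5-fold, 5 (17.9%) with and 17 (33.3%) without the letters were lower in the Lpar1 comparison. In the other, 2 (7.14%) and 9 (17.6%) were lower. Among all genes 18.4% and 21.1% were lower. The groups with and without the letters were not tested against each other. Sdha, near 0 in both comparisons, and Cox6a1 hold NRF1 letters, and Cox7a1, among the largest differences, does not; their bases before the start are shown, 5′ to 3′, with matches of any of these letters in capitals.
Sdha, chr13:74350241-74350490, minus strand: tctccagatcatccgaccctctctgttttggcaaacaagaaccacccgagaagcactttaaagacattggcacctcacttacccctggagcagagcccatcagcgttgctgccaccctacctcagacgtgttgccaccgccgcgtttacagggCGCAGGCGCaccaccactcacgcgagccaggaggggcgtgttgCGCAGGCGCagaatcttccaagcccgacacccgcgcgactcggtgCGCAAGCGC
Cox6a1, chr5:115348959-115349208, minus strand: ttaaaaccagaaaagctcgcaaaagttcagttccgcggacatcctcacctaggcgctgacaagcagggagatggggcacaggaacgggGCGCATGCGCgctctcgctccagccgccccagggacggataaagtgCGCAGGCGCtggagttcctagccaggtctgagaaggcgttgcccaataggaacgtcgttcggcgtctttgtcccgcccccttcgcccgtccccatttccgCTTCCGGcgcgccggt
Cox7a1, chr7:30183921-30184170, plus strand: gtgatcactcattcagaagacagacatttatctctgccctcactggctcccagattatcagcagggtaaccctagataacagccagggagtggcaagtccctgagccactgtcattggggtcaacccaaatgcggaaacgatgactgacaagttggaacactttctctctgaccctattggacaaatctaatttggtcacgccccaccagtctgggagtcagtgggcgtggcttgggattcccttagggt
The Cox7a1 window had none of them, which says only that these letters are not in this window. No match is a site shown to be used.

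The size of the shift depended on how arrays were scaled, while the members' median stayed below that of all genes in both coculture comparisons under the 5 settings plotted. In the Lpar1 comparison the median of the members minus that of all genes was -0.36 with the 75th percentile, -0.40 with normexp background and -0.15 with quantile normalization. In the labelled Pla2g3 coculture comparison the same values were -0.21, -0.36 and -0.20.

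**Figure D4:**
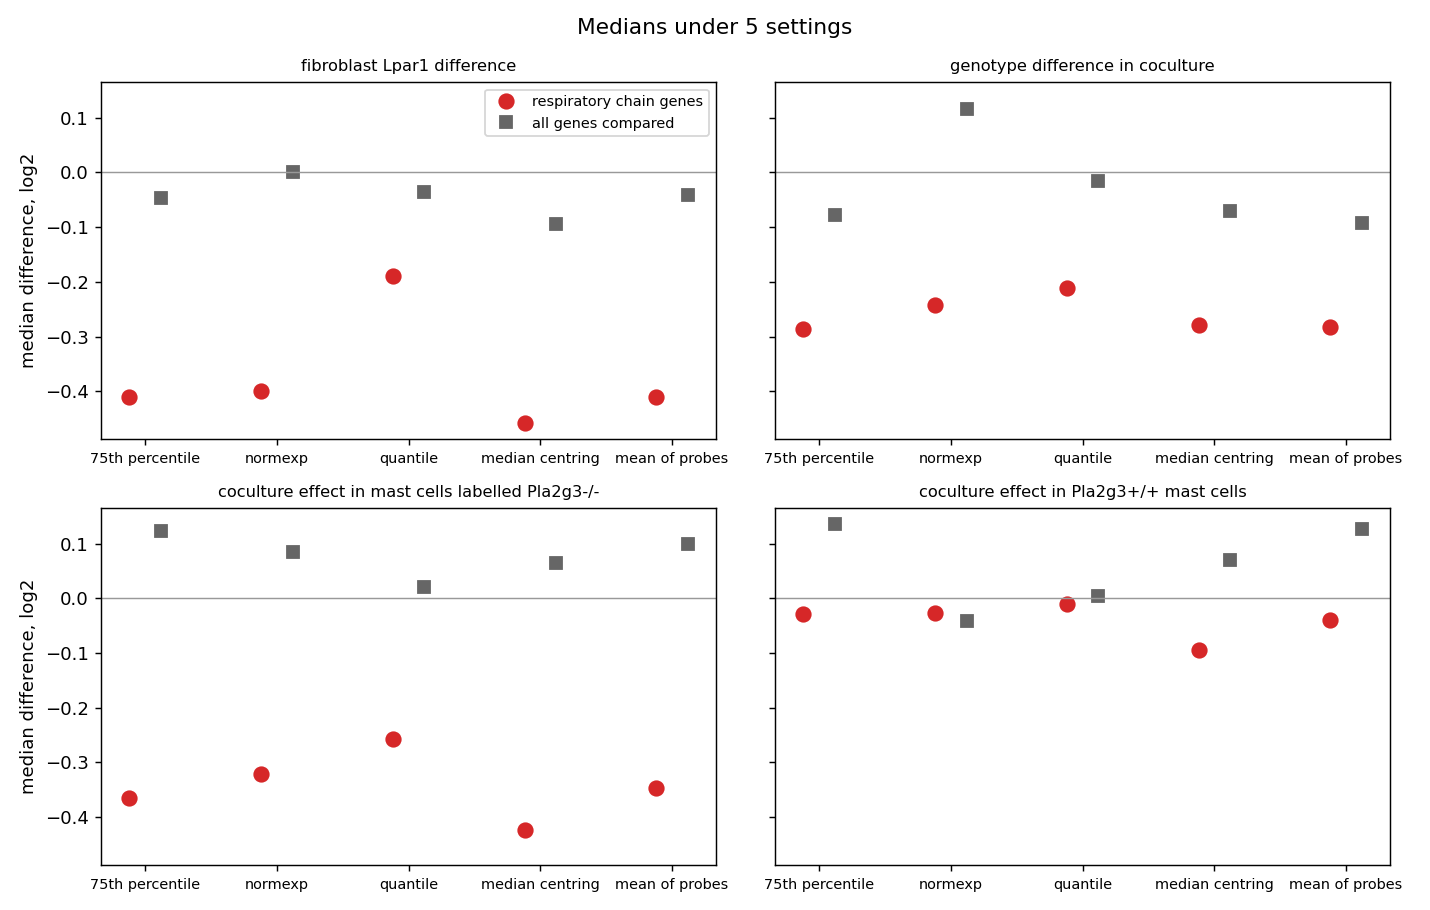
Median log2 difference of the respiratory chain genes (red circles) and of all genes compared (grey squares) under 5 settings, for 4 comparisons. In the first 3 panels the circles lie below the squares in every setting; in Pla2g3+/+ mast cells after coculture both lie near 0 and the order turns with normexp background.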

How the data were processed

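The 6 single-colour Agilent arrays were analysed, 1 per group. Per the labels' protocols 200 ng of RNA was labelled, and the deposited scanner files are output of Agilent Feature Extraction, version 12.1.1.1, per the submitters' processing notes. Intensity values are the deposited processed signals, after the scanner software's background and spatial correction per the file headers; the deposited value table holds the same signal as a ratio to a constant per array equal to about its 75th percentile. Coordinates are mm9 per the file headers, with no mm9 annotation used here, so exons and UTRs are not stated.

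Control spots (leaving 43020 spots per array) and outlier spots (84 to 115 per array) were left out, spots of a probe averaged, and log2 signals taken minus the array's 75th percentile (1230 to 1520). Between 70.7% and 80.4% of spots were well above background, and none were saturated; the number of arrays limits the precision. Genes were called past 1.5-fold and 2-fold, without p-values. A gene not well above background on 1 side got a bound: the bright signal over the higher of the dim signal and that array's lowest signal well above background. All 98 symbols matched RefSeq by accession. Named genes were those past 2-fold in any comparison, the highest and lowest of each complex, and fixed isoform, core and regulator genes; 1 of these is not reported here. The members and lists were chosen with earlier results of these data known. Of 44 second probes above background on every array, 38 to 44 lay within 1.5-fold of the brightest probe's difference. The calls were tested on simulated data. Alternatives were normexp background (limma 3.58.1, R 4.3.3, offset 50), quantile normalization, median centring, the mean of probes, 2 filters, the deposited table and the other wild-type coculture array. Python 3.11.15 was used otherwise.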

Additional observations from a re-analysis of the deposited data

Results flagged for a closer look

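Cox6a2 had opposite coculture differences in the 2 mast cell genotypes. Coculture minus alone was -2.96 in mast cells labelled Pla2g3-/- and 1.73 in Pla2g3+/+ mast cells, a difference of -4.69 on the log2 scale between them. With 1 array per group the difference was not tested. Slide cancels in it, and it lay between -4.81 and -3.22 over the settings tried.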

How the results depend on the processing

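No paired analysis was possible because each group has 1 array and no number pairs the samples. Of the values for all members, 142 kept their size within the set limits and 14 moved. With normexp background, members higher after coculture in Pla2g3+/+ mast cells numbered 4. With quantile normalization, 2 were higher in the labelled Pla2g3 coculture comparison, 11 lower in the Lpar1 comparison (median -0.19), and 12 lower in the difference of the coculture effects. With the mean of probes, 4 were higher after coculture in Pla2g3+/+ mast cells, 2 in the Lpar1 comparison and 2 in the difference of effects. With no filter, 2 were higher in labelled Pla2g3-/- mast cells after coculture, 1 lower between the genotypes without fibroblasts, 2 higher in the labelled Pla2g3 coculture comparison, 1 higher in the wild-type coculture pair and 2 in the difference of effects. With Pla2g3+/+ coculture in place of Lpar1+/+ fibroblasts, an alternative chosen after seeing the data, 0 were higher in the Lpar1 comparison. Among single genes past 1.5-fold and complex medians past 0.12, the SD in the wild-type pair, signs turned in 5: with normexp, Cox8b to 0.13 and Ndufa4l2 to 0.062 in the labelled Pla2g3 coculture comparison and Ndufa4l2 to 0.24 in the difference of effects; with the mean of probes, the complex I assembly median to 0.034 in labelled Pla2g3-/- mast cells after coculture and 0.013 in the difference of effects. Of 2061 alternative values of named genes within 1.5-fold of 0 difference, 100 had another sign, among them Atp5h in both coculture comparisons. The causes were not tested. Among all genes, the share of calls that were higher was 63.3% after coculture in Pla2g3+/+ mast cells, and 48.4% with quantile normalization; in the wild-type pair it was 68.8% and 49.1%. Normexp moved the median of all genes from 0.14 to -0.04 after coculture in Pla2g3+/+ mast cells and from -0.08 to 0.12 in the labelled Pla2g3 coculture comparison. Dim probes, such as that of Cox8b, limit the precision of low signals.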
